A study of Homo sapiens with 6 samples.

Results

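The genes described here are the zinc finger genes named ZNF and a number that appear in a deposited table of K1 RNA sequencing. K1 is an established human papillary thyroid carcinoma line. Members were taken by symbol alone, as every row whose name starts with ZNF and a digit, and 41 of the 986 listed genes matched. The samples were 3 libraries of miR-31 KO cells, which received an sgRNA against the microRNA miR-31, and 3 libraries of control cells, which had a control transfection. All 6 came from K1 cells grown in DMEM with 10% serum. The labels do not say whether the cells were a clone or a pool, or whether the libraries came from separate cultures, so each p-value rests on library-to-library spread that could be technical. What the sgRNA did cannot be told apart from any other way in which the KO and control cells differed.

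Most ZNF genes encode proteins with a row of C2H2 zinc fingers, each a short loop held by a zinc ion, and the row reads a stretch of DNA. In the largest subfamily the fingers follow a KRAB domain, which recruits the corepressor TRIM28 and through it the histone methyltransferase SETDB1, and many of these proteins silence transposable elements. Human KRAB genes lie in clusters, mainly on chromosome 19, that grew by tandem duplication, so that neighbours are alike in sequence. The name ZNF is given for a motif and not for descent, and some of its bearers are unrelated proteins.

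All values are the authors' deposited normalized counts per gene, a signal unit whose scaling method is not given in the sources used here. Means are given with the SD over 3 libraries (n = 3). Normalized counts are not divided by transcript length, so they compare libraries and not genes. The listed genes summed to between 545354 and 943360 normalized counts per library. Total depth is unknown, so no counting interval is given. The authors tested 16806 genes, by the ratio of their adjusted to raw p-values, and the 986 listed are 5.87% of them. Every listed gene has a deposited adjusted p under 0.05 and a log2 fold change no smaller in size than 1 (authors' deposited table), so a member's presence is a selection and not a test of the family, and genes outside the table cannot be called unchanged. MIR31 was not listed, and nor was MIR31HG, its host gene, so the labels could not be checked at the edited locus. Of the cell type markers, none of 7 for thyroid was listed. The only 1 of 5 listed for epithelium, KRT19, ranged over 404 to 571 in miR-31 KO and 984 to 1649 in control libraries. The listed fibroblast markers, 2 of 5 (LUM and PDGFRA), summed to 26.7 to 42.5 in miR-31 KO and 2.01 to 8.49 in control libraries. Leukocyte markers, 2 of 4 (CD3D and ITGAM), summed to 21.9 to 97.7 in miR-31 KO and 5.62 to 20.03 in control libraries. ITGAM overlapped between the groups, with 17.9, 22.4 and 92.6 in the KO replicates, against 5.62, 20.03 and 12.8 in the controls. Endothelial markers, 2 of 4 (KDR and TIE1), summed to 4347 to 6027 in miR-31 KO and 925 to 1756 in control libraries. Most of that sum was TIE1, with a mean of 4971 in miR-31 KO and 996 in control libraries. Of the listed markers, the fibroblast marker LUM and the T cell marker CD3D were at 0 in all controls. The part of these markers in the results below was not tested.

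Of the 41 ZNF genes, 26 were higher and 15 lower in miR-31 KO per the authors' deposited table. That is 63.4% higher, against 60.1% of all listed genes higher and 39.9% lower, so the balance of the family was near that of the table. The KO and control values did not overlap for any of the 41, where the share over all listed genes was 92.6%. The median absolute log2 fold change of the members was 1.94 in the authors' deposited table, against 1.89 over all listed genes. A log2 fold change of 4 or more in size stood beside 13 of the 41 in the authors' deposited table, against 15.3% of all listed genes. The libraries of a group did not lie equally near the other group. KO replicate 3 was the KO library nearest to the control mean in 17 of the 41 members and in 494 of the 986 listed genes. Control replicate 1 was the control library nearest to the KO mean in 459 listed genes, but in 13 members, as many as control replicate 2, while control replicate 3 was nearest in 9.

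**Figure D1:**
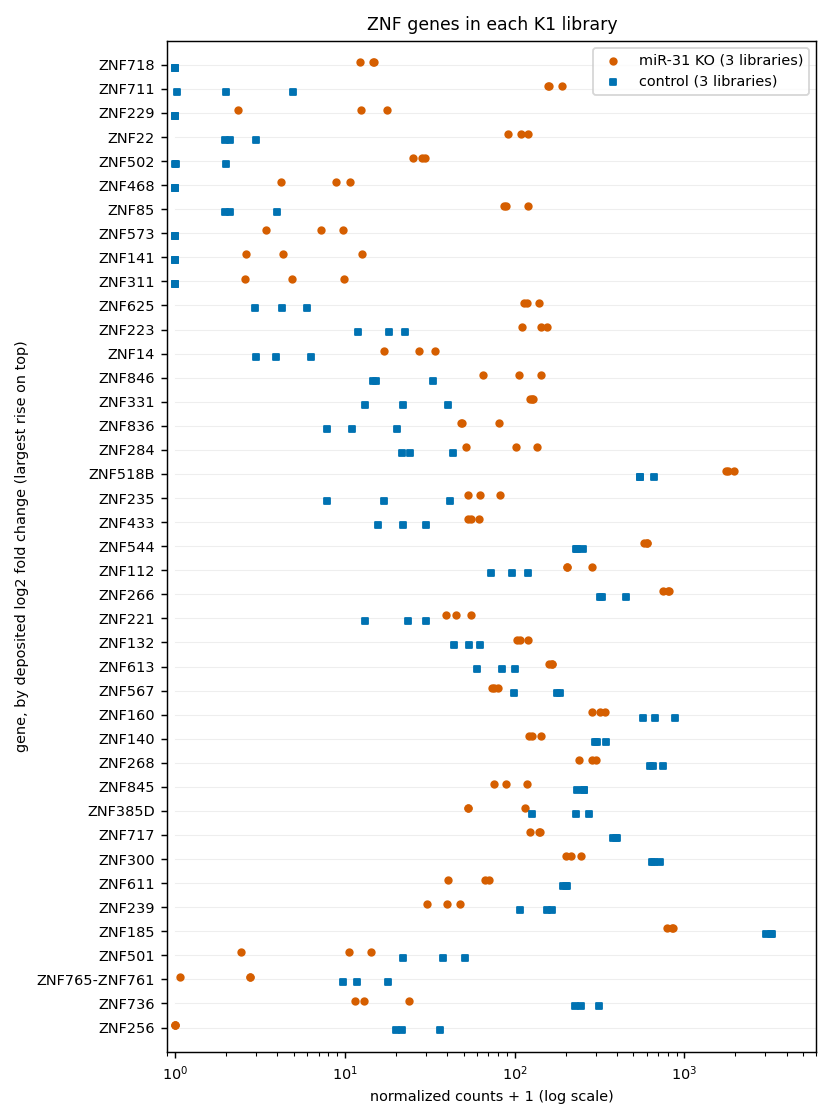
Normalized counts + 1 (x axis, log scale) of the 41 ZNF genes (y axis, ordered by the deposited log2 fold change) in the 3 miR-31 KO libraries (orange circles) and the 3 control libraries (blue squares). The KO and control libraries are apart in every row, and the genes at the left edge in 1 group reach different heights in the other.

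Some members were listed at 0 in 1 group, and others differed in level between groups that both held counts. A member was called on-off where every library of the lower group was under 1 normalized count and every library of the higher group was at 1 or more, and graded otherwise. By this rule 6 were on in miR-31 KO, 1 was off and 34 were graded. Over all listed genes 6.09% were on and 2.03% off. All 7 on-off members were listed at exactly 0 in the lower group, so no fold is given for them.

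The member that was off in miR-31 KO was ZNF256, a KRAB gene on chromosome 19 from 57940833 to 57947675 (GRCh38, minus strand). ZNF256 was at 0 in each miR-31 KO library and had 35.4, 19.04 and 20.6 normalized counts in the control replicates (adjusted p = 1.15e-10, authors' deposited table). Of the 6 that were on, ZNF718 had the smallest spread. ZNF718, of chromosome 4, had 13.7, 13.8 and 11.2 in miR-31 KO replicates 1, 2 and 3 and was listed at 0 in all 3 controls (adjusted p = 5.69e-07, authors' deposited table). The other 5 varied more among the KO libraries than ZNF718 did. ZNF229 had 16.7, 1.34 and 11.4 in the KO replicates, and ZNF468 had 9.71, 3.23 and 7.90, both of chromosome 19 and both at 0 in all controls. ZNF573, also of chromosome 19, had 6.24, 8.80 and 2.43 in the KO replicates and 0 in all controls. ZNF141, the neighbour of ZNF718, had 1.61, 11.6 and 3.34, and ZNF311 of chromosome 6 had 3.88, 8.89 and 1.57, again with 0 in all controls. No KO library was the lowest in all of these genes: KO replicate 2 held the lowest values of ZNF229 and ZNF468 and the highest of ZNF573, ZNF141 and ZNF311. In the authors' deposited table the adjusted p-values of these 5 lay between 0.00106 and 0.0165. Per kb of the longest annotated coding transcript, the higher group of the on-off members had between 1.58 and 11.5 normalized counts, with a median of 2.18, while the 33 graded members with a transcript had between 8.18 and 720, with a median of 43.8.

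Larger switches stood among the graded members, where 1 or more control libraries held a few counts. ZNF711, an X-linked relative of ZFX without a KRAB domain that is mutated in X-linked intellectual disability, had 156, 188 and 158 in the KO replicates, against 0.0318, 1.00 and 3.95 in the controls. The KO mean was 167 ± 17.9 and the control mean 1.66 ± 2.04, and the authors' deposited table gives a log2 fold change of 6.52 (adjusted p = 4.04e-43). ZNF711 thus spread over its control libraries far more in proportion than over its KO libraries, and the size of its fold rests on control values near 0. ZNF22, also known as KROX-26 and described in tooth development, had 119.6, 90.8 and 108 in the KO replicates, against 1.10, 2.003 and 0.979 in the controls (log2 fold change 6.16, adjusted p = 1.32e-31, authors' deposited table). ZNF85, a KRAB gene of chromosome 19, had 88.2, 85.7 and 118 in the KO replicates, against 1.11, 3.005 and 0.976 in the controls. In the authors' deposited table its log2 fold change was 5.74 and its adjusted p 2.41e-27. ZNF22 and ZNF85 thus kept low values in every control library and were at least 85.7 in every KO library.

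ZNF625, a KRAB gene of chromosome 19, had 118, 113 and 139 in the KO replicates, against 3.26, 5.01 and 1.95 in the controls (log2 fold change 5.13, adjusted p = 8.31e-31, authors' deposited table). Every stretch of 50 bases of its annotated coding transcript also occurs in the readthrough transcript ZNF625-ZNF20, so its counts are uncertain where the authors' counting could split them. ZNF502, which lies on chromosome 3 and has no KRAB box by the search described below, had 27.5, 28.5 and 24.3 in the KO replicates, against 0.00649, 1.00 and 0 in the controls (log2 fold change 5.86, adjusted p = 1.01e-11, authors' deposited table). It lay just outside the on-off rule through control replicate 2. ZNF14 of chromosome 19 had 33.1, 15.9 and 26.2 in the KO replicates, against 5.34, 2.01 and 2.94 in the controls, and a deposited log2 fold change of 2.84 (authors' deposited table, adjusted p = 2.46e-05). With on-off defined by a mean of the lower group under 2 normalized counts, 10 members were on and 2 off, since ZNF711, ZNF22, ZNF85, ZNF502 and ZNF765-ZNF761 joined. With the higher mean over 10 times the lower mean, 11 were on and 3 off, and ZNF625 and ZNF736 joined as well. How many of all listed genes met either wider rule was not counted, so these numbers are no trait of the family.

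**Figure D2:**
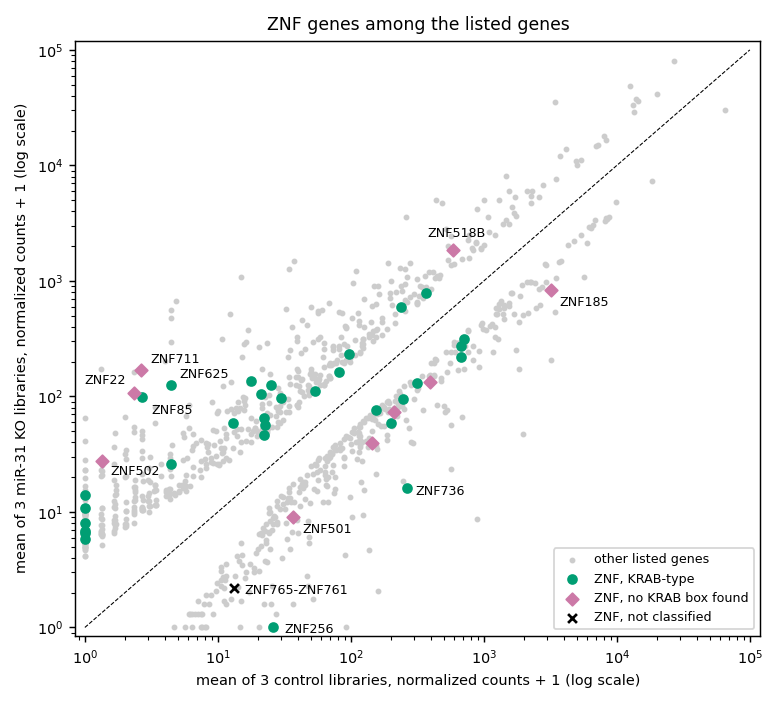
Mean of the 3 miR-31 KO libraries against the mean of the 3 control libraries, both as normalized counts + 1 on log scales, for ZNF genes with a KRAB box match in the longest coding sequence (green circles), with none there (pink diamonds) or not classified (cross), and for the other listed genes (grey). Genes above the dashed line of equal values were higher in miR-31 KO. ZNF711, ZNF22 and ZNF85 lie above the on-off genes of the left edge, whose miR-31 KO means are at most 12.9.

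The other graded rises were smaller in fold, and several started from substantial control values. ZNF518B, a protein with few fingers that binds the histone methyltransferase EHMT2, had 1771, 1964 and 1813 normalized counts in the KO replicates, against 662, 544 and 549 in the controls. It averaged 1849 ± 102 in miR-31 KO and 585 ± 66.3 in control cells, and the authors' deposited table gives a log2 fold change of 1.66 (adjusted p = 1.88e-32). ZNF544, a KRAB gene of chromosome 19, had 602, 602 and 574 in the KO replicates, against 228, 233 and 253 in the controls (log2 fold change 1.31, adjusted p = 6.73e-12, authors' deposited table). For both, the gap between the groups exceeded the range within either group. ZNF266 had 747, 797 and 812 in the KO replicates, against 316, 327 and 451 in the controls (log2 fold change 1.11, authors' deposited table). ZNF331, an imprinted KRAB gene, had 123, 125 and 127 in the KO replicates, against 12.2, 21.0 and 39.4 in the controls, so its KO values were nearly equal while its control values spread about a mean of 24.2 ± 13.9.

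Among the lower members, the one with the smallest deposited adjusted p is not a C2H2 gene. ZNF185 encodes a LIM domain protein of the actin cytoskeleton, and no C2H2 finger was found in its protein. It had 787, 855 and 846 in the KO replicates, against 3037, 3282 and 3226 in the controls, a 3.84-fold lower mean in miR-31 KO. In the authors' deposited table its log2 fold change was -1.94 and its adjusted p 7.98e-68. ZNF736, a KRAB gene of chromosome 7, had the lowest ratio among the falls without values at 0 in KO. It had 10.5, 22.8 and 12.01 in the KO replicates, against 226, 315 and 247 in the controls (log2 fold change -4.10, adjusted p = 1.91e-32, authors' deposited table). The KO mean of 15.1 ± 6.73 was 17.4-fold below the control mean of 263 ± 46.2.

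The remaining graded falls were between 2.02-fold and 3.71-fold, except in ZNF765-ZNF761 (10.2-fold) and ZNF501 (4.46-fold). ZNF300, a KRAB gene of chromosome 5, had 199, 213 and 245 in the KO replicates, against 717, 648 and 665 in the controls (adjusted p = 4.62e-17, authors' deposited table). ZNF717 of chromosome 3 had 140.1, 123 and 138 in the KO replicates, against 397, 378 and 400.0 in the controls (adjusted p = 5.94e-13, authors' deposited table). ZNF239, or MOK2, a KRAB-free protein known to bind RNA and DNA and lamin A/C, had 29.5, 38.7 and 46.5 in the KO replicates, against 106, 153 and 166 in the controls. Each of these genes was lower in all 3 KO libraries than in any control library. ZNF385D had 52.5, 51.8 and 114 in the KO replicates, against 126, 273 and 228 in the controls, so its highest KO value lay close to its lowest control value. ZNF567 had 72.8, 74.8 and 79.4 in the KO replicates, against 97.9, 176 and 185 in the controls, with a deposited log2 fold change of -1.01 in the authors' deposited table.

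KRAB-type members were separated from the others by the longest annotated coding sequence, translated by script and searched for the KRAB A box. Of 40 members with a coding transcript, 31 (77.5%) held at least 1 of 2 stretches of the box, and 9 held none. In GENCODE release 29, 316 of 512 coding ZNF genes (61.7%) held it by the same search. Of the KRAB-type members 22 were higher and 9 lower in miR-31 KO, and of the other 9 members 4 were higher and 5 lower, per the authors' deposited table. This contrast depends on the search. With both stretches required, 11 of 20 KRAB-type members were higher, and 15 of the 20 others, so the group with the larger share of rises changed. With the box taken from any coding transcript, ZNF717 joined the KRAB-type, whose longest coding sequence gave no match, and 22 of 32 were higher against 4 of 8. ZNF765-ZNF761, a readthrough transcript, was not classified.

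All 7 on-off members were KRAB-type, where 31 of all 40 classified members were, and 24 KRAB-type members were graded, while the 9 others were all graded. The mean of the higher group was at most 25.0 normalized counts in the on-off members and at least 26.8 in the 9 others. None of the 9 was thus as low as the on-off members, and the part of this level was not tested. With both stretches required, 6 of the 7 on-off members were KRAB-type and ZNF229 was not. With on-off defined by a mean under 2, the class included ZNF711, ZNF22 and ZNF502, which have no KRAB box, so the on-off class is made of KRAB genes under the stricter rule and not under the wider one. Among the graded, the median absolute log2 fold change was 1.51 for the 24 KRAB-type members and 1.94 for the 9 others in the authors' deposited table. The 4 members with no KRAB match in the longest coding sequence that were higher were ZNF711, ZNF22, ZNF502 and ZNF518B, and the 5 that were lower were ZNF185, ZNF717 (which has a match in another transcript), ZNF239, ZNF501 and ZNF385D. The number of fingers was a median of 13 in KRAB-type proteins, with a range of 8 to 26, and a median of 9 in the others, with a range of 0 to 18. On-off members had a median of 14 fingers (10 to 19) and graded members a median of 13 (0 to 26), so finger number did not separate these classes.

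**Figure D3:**
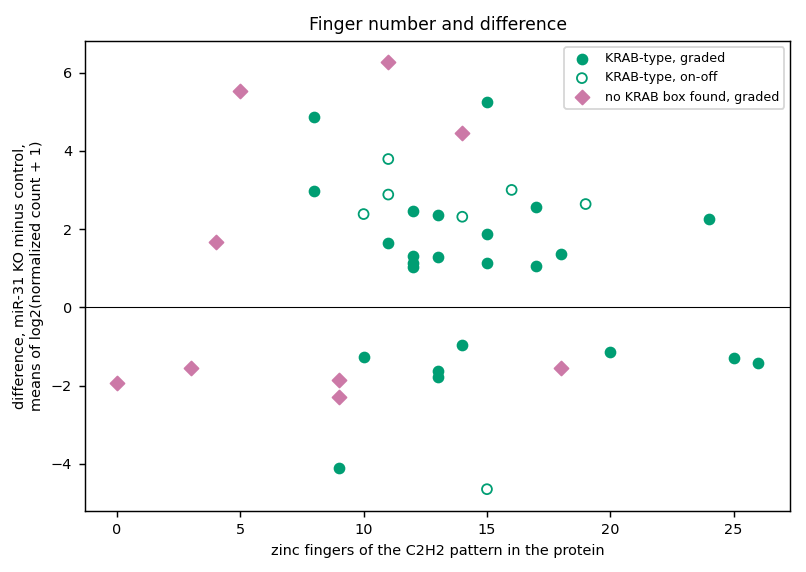
Difference between the means of log2(normalized count + 1), miR-31 KO minus control (y axis), against the number of C2H2 fingers in the protein (x axis), for 40 ZNF genes. Filled green circles are graded KRAB-type genes, open green circles on-off KRAB-type genes and pink diamonds genes with no KRAB box match in the longest coding sequence. Genes higher in miR-31 KO had 4 to 24 fingers and lower genes 0 to 26.

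The members lay on 9 chromosomes, and 25 of the 41 were on chromosome 19, where 249 of the 512 annotated coding ZNF genes also lie (48.6%). On chromosome 19, 19 were higher and 6 lower in miR-31 KO, and on the other chromosomes 7 were higher and 9 lower, per the authors' deposited table. Neighbours were grouped in runs in which each start lay within 1 Mb of the next, and 27 members fell into 8 runs. Of the 19 pairs of adjacent members in these runs, 13 shared a direction and 6 did not. With 26 members higher and 15 lower, many pairs share a direction wherever they lie. The 13 were not compared with pairs of distant members, so they are not read as a trait of neighbours. The 14 members outside the runs stood alone, 7 higher and 7 lower.

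The most uniform run held 6 members on chromosome 19 from 43951223 to 44448578 (GRCh38), all KRAB-type and all higher in miR-31 KO. All 6 held only the end stretch of the box, so none was KRAB-type with both stretches required. They are among the rises that left the KRAB-type under that search. ZNF223 had 153, 141 and 109 normalized counts in the KO replicates, against 17.3, 11.0 and 21.7 in the controls (log2 fold change 3.01, adjusted p = 1.88e-16, authors' deposited table). ZNF284 had 134, 50.5 and 100.3 in the KO replicates, against 20.8, 23.0 and 42.3 in the controls. ZNF112 had 202, 204 and 286 in the KO replicates, against 71.7, 119 and 95.3 in the controls. In these genes every KO library was above every control library, but with wide spread within the groups. ZNF235 had 61.6, 80.6 and 51.8 in the KO replicates, against 6.84, 16.0 and 40.4 in the controls. ZNF221 had 54.5, 38.4 and 44.4 in the KO replicates, against 12.2, 29.1 and 22.6 in the controls, and its adjusted p of 0.0306 was the largest of all members in the authors' deposited table. The sixth gene, ZNF229, is the on-off member described above. In this span 16 coding ZNF genes are annotated, and the 10 that are not listed cannot be called unchanged. Support within the run was uneven: limma refits of the listed genes called ZNF223 in 11 of 12 settings, ZNF229 in 2 of 11, and ZNF221, ZNF284, ZNF235 and ZNF112 in none. Reads may also be shared, since 61.9% of the 50-base stretches of ZNF223 and 43.9% of those of ZNF284 occur in the annotated transcripts of another gene, mainly AC067968.1 for both. The share was 12.7% in ZNF112, 8.79% in ZNF229 and lower in ZNF221 and ZNF235.

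The longest run, with 8 members on chromosome 19 from 51927147 to 53580269, was mixed, with 4 higher and 4 lower. ZNF613 had 164, 159 and 166 in the KO replicates, against 83.2, 59.1 and 99.3 in the controls, and ZNF836 had 80.0, 47.8 and 47.6, against 19.2, 10.0 and 6.85. The next listed member, with its start 563 kb from that of ZNF836, was ZNF611. It was lower at 69.4, 65.7 and 39.5 in the KO replicates, against 199, 192 and 202 in the controls (adjusted p = 4.19e-09, authors' deposited table). Then came ZNF468, on in miR-31 KO, followed by 3 lower genes. ZNF160, a KRAB gene reported to repress TLR4, had 339, 318 and 285 in the KO replicates, against 876, 666 and 568 in the controls. ZNF845 had 74.8, 117 and 87.8 in the KO replicates, against 254, 232 and 257 in the controls. ZNF765-ZNF761 had 0.0673, 1.74 and 1.76 in the KO replicates, against 8.77, 17.0 and 10.8 in the controls. The last gene of the run was ZNF331, higher as given above. Direction thus changed 4 times along the 8 listed members. In this span 37 coding ZNF genes are annotated, 7 of which are listed beside the readthrough, and the direction of the others is unknown. Of the 50-base stretches of ZNF611, 13.6% occur in transcripts of other genes, and of ZNF836 14.7%. ZNF765-ZNF761 is annotated as a readthrough of ZNF765 and ZNF761, which were not listed themselves, so its counts are uncertain too.

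**Figure D4:**
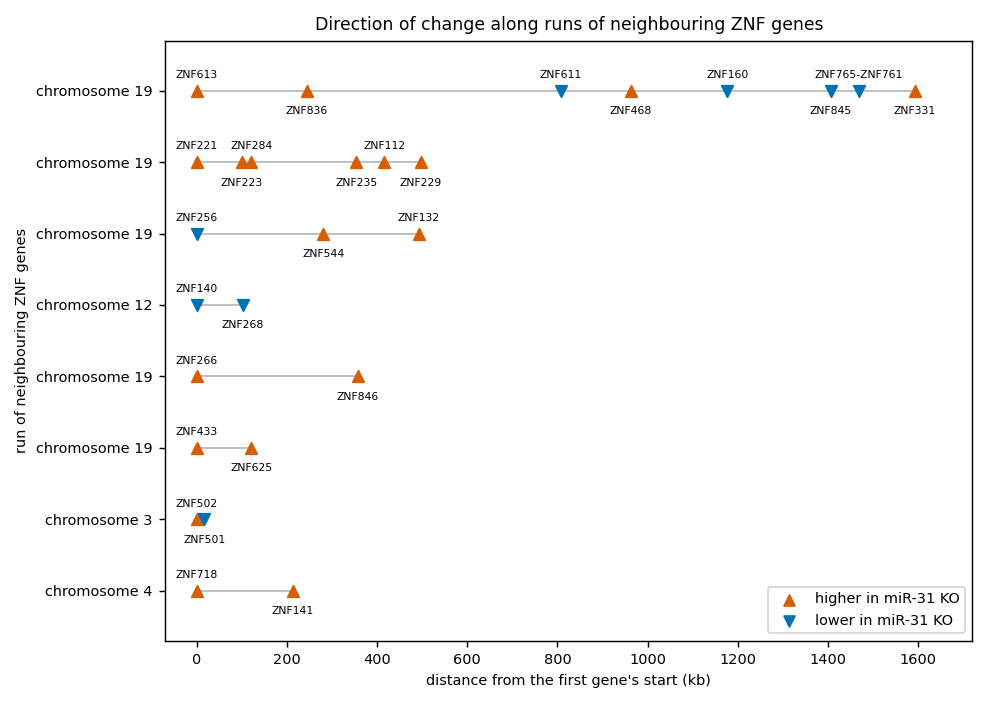
Direction of change of the 27 ZNF members in 8 runs of neighbours, with distance in kb from the start of the first member on the x axis and 1 run per row. Orange triangles pointing up are higher and blue triangles pointing down lower in miR-31 KO. All 6 members of the second row were higher, while the first row, the third row (ZNF256, ZNF544 and ZNF132) and the pair on chromosome 3 hold both directions.

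The other runs were short. On chromosome 12 both members were lower: ZNF140, a KRAB repressor, had 125, 120.3 and 142 in the KO replicates, against 298, 343 and 305 in the controls, and ZNF268 had 238, 301 and 284, against 624, 653 and 747. On chromosome 4 ZNF718 and ZNF141 were both on in miR-31 KO. These pairs moved together, each within its own scale of counts. Support differed, since limma refits of the listed genes called ZNF140 in 8 of 12 settings and ZNF268 in 9 of 12. They called ZNF718 in 11 of 11 and ZNF141 in 1 of 11. On chromosome 19 ZNF266 was higher with its neighbour ZNF846, which had 142, 105 and 64.4 in the KO replicates, against 14.2, 32.1 and 13.7 in the controls. ZNF433, the neighbour of ZNF625, had 61.0, 54.2 and 52.1 in the KO replicates, against 28.97, 21.0 and 14.7 in the controls. In the run that holds the off gene ZNF256, its neighbours ZNF544 and ZNF132 were higher, and ZNF132, whose promoter is known to be methylated in prostate cancer, had 107, 119 and 103 in the KO replicates, against 61.4, 53.1 and 43.2 in the controls.

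The closest pair went in opposite directions. ZNF502 and ZNF501 lie on the same strand of chromosome 3 with starts 17.0 kb apart, and no other coding ZNF gene is annotated between their outer ends. ZNF502 was higher as given above, while ZNF501 had 13.2, 9.57 and 1.45 normalized counts in the KO replicates, against 36.8, 21.0 and 50.2 in the controls (log2 fold change -2.14, adjusted p = 0.00382, authors' deposited table). Support was unequal, since limma refits of the listed genes called ZNF502 in 12 of 12 settings and ZNF501 in 0 of 12. Their promoter windows are shown because these neighbours moved oppositely, with those of ZNF22, a large rise, ZNF256, the off gene, and ZNF718, the on gene with the smallest spread. Each is 300 bases from RefSeq on GRCh38.p14, 250 before and 50 after the annotated start, printed 5′ to 3′ on the gene's strand in lower case with every CG dinucleotide in capitals.
ZNF502 (chr3:44712410-44712709, plus strand): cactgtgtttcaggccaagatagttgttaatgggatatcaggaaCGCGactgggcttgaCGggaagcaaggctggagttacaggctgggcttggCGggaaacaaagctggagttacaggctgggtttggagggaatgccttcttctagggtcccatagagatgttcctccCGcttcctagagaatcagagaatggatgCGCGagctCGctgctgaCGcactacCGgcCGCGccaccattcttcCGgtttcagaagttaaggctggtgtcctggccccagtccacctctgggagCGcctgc
ZNF501 (chr3:44729385-44729684, plus strand): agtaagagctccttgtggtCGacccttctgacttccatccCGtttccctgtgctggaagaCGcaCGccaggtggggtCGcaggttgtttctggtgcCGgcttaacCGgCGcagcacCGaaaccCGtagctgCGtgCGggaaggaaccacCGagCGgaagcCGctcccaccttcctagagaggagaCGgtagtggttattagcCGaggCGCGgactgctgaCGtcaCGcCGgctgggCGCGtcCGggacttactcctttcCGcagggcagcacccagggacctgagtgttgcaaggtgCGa
ZNF22 (chr10:45000673-45000972, plus strand): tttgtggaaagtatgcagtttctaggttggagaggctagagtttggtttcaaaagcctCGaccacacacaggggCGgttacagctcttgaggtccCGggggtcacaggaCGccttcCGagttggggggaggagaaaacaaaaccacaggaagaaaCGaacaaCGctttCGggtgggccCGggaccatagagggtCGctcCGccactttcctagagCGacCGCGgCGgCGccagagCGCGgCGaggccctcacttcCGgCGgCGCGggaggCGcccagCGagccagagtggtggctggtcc
ZNF256 (chr19:57947657-57947956, minus strand): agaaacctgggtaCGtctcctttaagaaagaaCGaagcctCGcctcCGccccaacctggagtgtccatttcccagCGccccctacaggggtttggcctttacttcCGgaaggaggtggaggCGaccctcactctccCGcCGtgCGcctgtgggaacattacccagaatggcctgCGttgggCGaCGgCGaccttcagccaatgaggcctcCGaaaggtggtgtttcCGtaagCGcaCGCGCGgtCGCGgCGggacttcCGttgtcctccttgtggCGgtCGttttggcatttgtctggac
ZNF718 (chr4:127871-128170, plus strand): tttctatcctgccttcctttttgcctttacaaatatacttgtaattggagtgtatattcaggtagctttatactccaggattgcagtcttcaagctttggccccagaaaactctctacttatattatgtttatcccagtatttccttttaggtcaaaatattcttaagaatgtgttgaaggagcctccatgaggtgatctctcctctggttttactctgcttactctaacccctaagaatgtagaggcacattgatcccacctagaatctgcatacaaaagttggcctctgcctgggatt

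CG counts describe how CpG-rich a window is, and a CpG-rich start is the usual promoter type of broadly used genes. The window of ZNF502 holds 14 CG and that of ZNF501 holds 27. The windows of ZNF22, ZNF256 and ZNF718 hold 25, 26 and 0. The RefSeq start of ZNF718 lies 3.64 kb from the GENCODE start used for its position above, so its count of 0 describes that RefSeq start alone. For ZNF502, ZNF501, ZNF22 and ZNF256 the starts lie within 1 kb of each other. Over 38 members with both starts, 10 had them more than 1 kb apart. Where a gene had several windows, the one with the most CG was used. Of the 39 members with a window, 36 (92.3%) held 10 or more CG, against 58.5% of all 27305 genes of the promoter table, whose median was 16 CG. Among listed genes with a window 70.6% held 10 or more, with a median of 22 CG, above that of the members. Only 729 of the 986 listed genes had a window, fewer than 80%, so the comparison with them is void. The median was 20 CG over the members, 18 over the 7 on-off members and 20.5 over 32 graded members. It was 18 over 24 higher and 26 over 15 lower members. These counts say nothing of methylation, which was not measured.

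The sgRNA was directed at miR-31, so the members were searched for matches to the seed of its main arm, bases 2 to 8, which are in capitals here as given by RefSeq.
hsa-miR-31-5p: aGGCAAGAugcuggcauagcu

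A seed match (the 7 bases facing the seed, or 6 of them followed by A) was found in the 3' UTR of 6 of 40 members (15%), against 162 of 963 listed genes with a coding transcript (16.8%). Only the transcript with the longest coding sequence was searched. The sequence searched as its 3' UTR, which can begin with the stop codon, ranged from 3 bases in ZNF846 to 10304 in ZNF268. ZNF846 thus could not hold a match, and other members without a match may have had little sequence to search. The members with a match were ZNF132, ZNF284, ZNF331 and ZNF573, which were higher in miR-31 KO, and ZNF268 and ZNF736, which were lower. Matches thus occurred in 4 of 26 higher and 2 of 14 lower members. In the coding sequence, 4 of 40 members had a match (ZNF239, ZNF284, ZNF711 and ZNF836), against 17.3% of the 963 listed genes. The members with a match of the full seed followed by A in the 3' UTR, and the coding match of ZNF284, are shown as the most complete ones, in GRCh38 and 5′ to 3′ on the gene's strand with the match in capitals.
ZNF284, 3' UTR (chr19:44088331-44088352, plus strand): atctttaTCTTGCCAtaaatga
ZNF284, coding (chr19:44085766-44085787, plus strand): agagtggTCTTGCCAgcaaatc
ZNF573, 3' UTR (chr19:37738361-37738382, minus strand): atgcagaTCTTGCCAcattaga
ZNF736, 3' UTR (chr7:64353942-64353963, plus strand): atgtgtaTCTTGCCActgatgt

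These full matches were in 2 higher genes and 1 lower gene, ZNF736, the largest fall without values at 0. A match is a description of letters and was not tested as a site.

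The genes that work with KRAB proteins, and other zinc finger families, were looked up in the same table. None of 34 genes of the KRAB corepressor and heterochromatin list, among them TRIM28, SETDB1 and the CBX genes, was listed, and what they did cannot be said, because the table holds a selection. Over 15 other zinc finger symbol starts 9 genes were listed, 5 higher and 4 lower. The Hedgehog effector gene GLI2 had 404, 420.4 and 308 normalized counts in the KO replicates, against 1065, 1084 and 949 in the controls. KLF8 had 79.7, 58.1 and 75.0 in the KO replicates, against 9.71, 4.01 and 12.8 in the controls. PRDM9, a meiotic histone methyltransferase with a KRAB-like domain, was listed at 0 in all controls and had 35.0, 13.4 and 18.1 in the KO replicates. KLF11 had 279.8, 325 and 292 in the KO replicates, against 704, 691 and 738 in the controls. ZBTB10 had 1004, 801 and 854 in the KO replicates, against 272, 344 and 402 in the controls, and ZBTB42 had 261, 229.8 and 199.9, against 98.3, 104 and 68.7. The other zinc finger families thus also held rises, falls and an on gene.

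A limma refit of the listed genes on log2(normalized count + 1), adjusted over 16806 genes, called 28 of the 41 members, 16 higher and 12 lower, against 45.3% of all listed genes called. It called 4 of the 7 on-off and 24 of the 34 graded members, and 20 of the 31 KRAB-type and 7 of the 9 other members. Over 12 settings of this refit, 13 members were called in every setting that tested them. These were the rises ZNF711, ZNF518B, ZNF22, ZNF625, ZNF85, ZNF544, ZNF502 and ZNF718 and the falls ZNF185, ZNF736, ZNF300, ZNF717 and ZNF256. Another 8 members were called in none, namely ZNF112, ZNF132, ZNF221, ZNF235, ZNF284, ZNF433, ZNF501 and ZNF613. How many of all listed genes were called in every setting, or in none, was not counted, so neither number is a trait of the family. These refits estimate the spread from genes already selected for their change and are no genome-wide test. After quantile normalization the calls were 11 higher and 12 lower, with the median of all listed genes shifted by -0.52 on the log2 scale, and no member changed sign.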

How the data were processed

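RNA was measured in 6 libraries. Per the labels' protocols it was taken with Trizol and made into Illumina libraries. Per the submitters' processing notes, the tools included RSEM, HISAT and Bowtie2, and both hg38 and hg19 are named. The sources used here do not give their roles, order or versions, nor the scaling and the test. Groups follow the sample titles, which number 3 libraries each, while the series text speaks of duplicates. The deposited signal values are normalized read counts that the authors made. The log2 fold change (miR-31 KO over control) and the p-values were also deposited by the authors. They are the main result because the table holds only selected genes.

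Members and lists were chosen with earlier results of these data known. Values are given per library for the on-off members, the 8 higher and 8 lower graded members with the smallest adjusted p, the member with the highest mean, members of runs, and up to 6 genes of a list. ZNF14, ZNF385D and ZNF567 were named after their values were seen, to account for every member. The text covers all 41. Positions came from GENCODE release 29 (40 members) and RefSeq (ZNF765-ZNF761). The deposited table has no coordinates. The KRAB A box was searched by its start (F, any residue, D or E, V or L, and shortly after it E or Q before W) and its end (LY, any pair, V or M, and shortly after it EN). Fingers were counted as C, 2 to 4 residues, C, 12 residues, H, 3 to 5 residues, H. Shared sequence was counted as exact 50-base stretches. Refits used limma 3.58.1 in R 4.3.3, tested on simulated data, and Python 3.11.15 with pandas 2.3.3 and Biopython 1.88. The simulation held 16806 genes, most of them unchanged, while the refits held only the 986 listed genes, so it did not test that setting. Alternatives were an adjusted p of 0.01, a log2 fold change of 2, other pseudocounts, normalization, filters and definitions, the replicate block, and each library left out.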

Additional observations from a re-analysis of the deposited data

How the results depend on the processing

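The deposited test gave 41 members, 37 at an adjusted p under 0.01 and 20 where the log2 fold change had to reach 2 in size (16 higher, 4 lower). The shares of all listed genes that pass these limits were not counted. Rises were larger than falls over all listed genes too, with median log2 fold changes of 2.14 and -1.61 (authors' deposited table). The limma refit called 28 members (45.3% of all listed genes), 27 with a pseudocount of 0.1 (39.5%), 23 after quantile normalization (46.6%), 23 with a mean of at least 10 (45.9% of the listed genes left), and 25 with the replicate block (42.3%). The deviations of libraries with the same number correlated at 0.20, -0.13 and 0.15 across listed genes. Deviations were taken from means of 3 libraries, in genes selected for change. They thus cannot show whether libraries of the same number shared a culture or batch. Refits on 5 libraries ranged over 13 to 23 calls: 13 (15.8% of all listed genes) without miR-31 KO replicate 1, 18 (18.8%) without replicate 2 and 21 (40.2%) without replicate 3, and 23 (42.6%), 15 (18.5%) and 16 (19.2%) without control replicates 1, 2 and 3. The set of KO replicates 1 and 2 against control replicates 2 and 3, chosen after the data were seen, gave 25 (51.2%). These fits use fewer libraries, and no other cause was tested. Of 485 member values over the refits, 257 kept their call, 228 lost it and 0 changed sign. The same count was not made over all listed genes. The on-off count was 7, 12 with a lower mean under 2 and 14 with the higher mean over 10 times the lower, and 7 without any 1 library except control replicate 2, without which it was 8. On-off counts under these alternatives were not made over all listed genes. KRAB-type members numbered 31, 20 with both stretches required, 25 with a mean of at least 10 and 32 over any coding transcript, the last chosen after the data were seen. The 13 neighbour pairs of shared direction and the 0 listed cofactors cannot change when a library is left out, since no member's groups overlap and the table is fixed. Values near 1 normalized count are limited by depth, which is unknown here.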
